A study of Populus tremula x Populus alba with 4 samples.

Results

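The NAC transcription factors of the SND1 group are the switches that turn on wall thickening in plant fibres. This account follows 8 of them in poplar bark: WND1A (Potri.011G153300.1), WND1B (Potri.001G448400.1), WND2A (Potri.014G104800.1) and WND2B (Potri.002G178700.1), which are SND1/NST-like, and NAC154 (Potri.017G016700.1), NAC105 (Potri.007G135300.1), NAC156 (Potri.011G058400.1) and NAC157 (Potri.004G049300.1), which are SND2/SND3-like. The genes were picked by ID, as members of this family, at a time when earlier results of these data were known. All 8 were found among the 41335 transcript IDs of the deposited tables, 1 transcript for each gene. The tables carry no gene names, and the names above come with the list of IDs, in the same order.

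Bark RNA was sequenced from MIR15 transgenic plants and from wild-type (WT) plants, with 2 libraries each, described as biological replicates. Both genotypes share the background of clone INRA 717-1B4, a cross of Populus tremula and P. alba, and were multiplied in sterile culture, with kanamycin for selection when needed, then grown in soil at the same temperature and day length. The labels give neither plant age nor harvest stage, nor do they say what the MIR15 construct expresses, which promoter drives it, which gene it is meant to lower, or whether the MIR15 libraries come from more than 1 transgenic line. P-values rest on the spread between these 4 libraries, and whether differences hold in other lines or plants was not tested. The series compares the bark transcriptome of MIR15 with that of WT.

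In Arabidopsis, SND1 and its close relative NST1 act redundantly in stem fibres: plants lacking both fail to thicken fibre walls, and overexpression puts thick walls in cells that normally lack them. SND1 binds promoters of second-level regulators, among them MYB46, MYB83, MYB103, KNAT7 and SND3, and these in turn raise the enzymes that make cellulose, xylan and lignin. In poplar the WND genes are the counterparts of SND1 and NST1, the SND2/SND3-like NAC genes stand below them, and each of these genes has a close paralog from the whole-genome duplication shared by poplars and willows. Bark holds the phloem with its thick-walled fibres, outside the cambium.

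Total gene reads came to 68453851 and 69747662 in MIR15 replicates 1 and 2, and to 82789893 and 77052567 in WT replicates 1 and 2. Of all reads, between 5.29% and 6.46% matched more than 1 place. Levels are given as CPM, the total gene reads of a gene scaled to a library of 1000000 reads. The tables hold no transcript lengths, so CPM can be set between libraries for 1 gene, and an order of CPM between genes is an order of reads, not of transcript number. Fewer fibre cells and less RNA per fibre cell cannot be told apart in whole bark. Whether the samples hold bark and nothing else was not checked against marker genes, because no annotation was used here.

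All 8 switches were on in bark of both genotypes, in the sense that each had over 1 CPM in every library. The smallest count was 145 reads, for WND2A in MIR15 replicate 2. Such levels are common: 25929 of the 41335 IDs averaged 1 CPM or more and had reads in every library. In reads, the SND1/NST-like genes were ordered WND1A, WND1B, WND2B and WND2A in all 4 libraries. Among the SND2/SND3-like genes, NAC105 had fewest reads in every library and NAC156 had most, while NAC154 and NAC157 changed places: NAC157 was above NAC154 in MIR15 replicate 2 and in both WT libraries, and below it in MIR15 replicate 1. The order of NAC154 and NAC157 in reads was therefore not the same in every library, and no test between genes was run.

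None of the 8 passed the test between genotypes, edgeR's quasi-likelihood test over 30975 genes with Benjamini-Hochberg adjustment. In that test 1 gene was called at an adjusted p under 0.05, 0.00323% of those tested, and each of the 8 switches had an adjusted p of 1.00. At an unadjusted p under 0.05 the test gave 764 genes, 2.47% of those tested, and 1 switch, WND2B. With all 4 libraries, the second-named gene of every paralog pair had the more negative value. The log2 fold changes of WND1A, WND2A, NAC154 and NAC156 lay between -0.10 and 0.07. Those of WND1B, WND2B, NAC105 and NAC157 lay between -0.70 and -0.19. The naming order is that of the list of IDs, and no count over other gene pairs was made. Without MIR15 replicate 1 the order turned for NAC156 and NAC157, at -0.01 and 0.03. In 3 of the 8 (WND1B, WND2B and NAC105), both MIR15 libraries lay below both WT libraries, against 13.9% of all tested genes. With 8 members that count was not tested further.

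**Figure D1:**
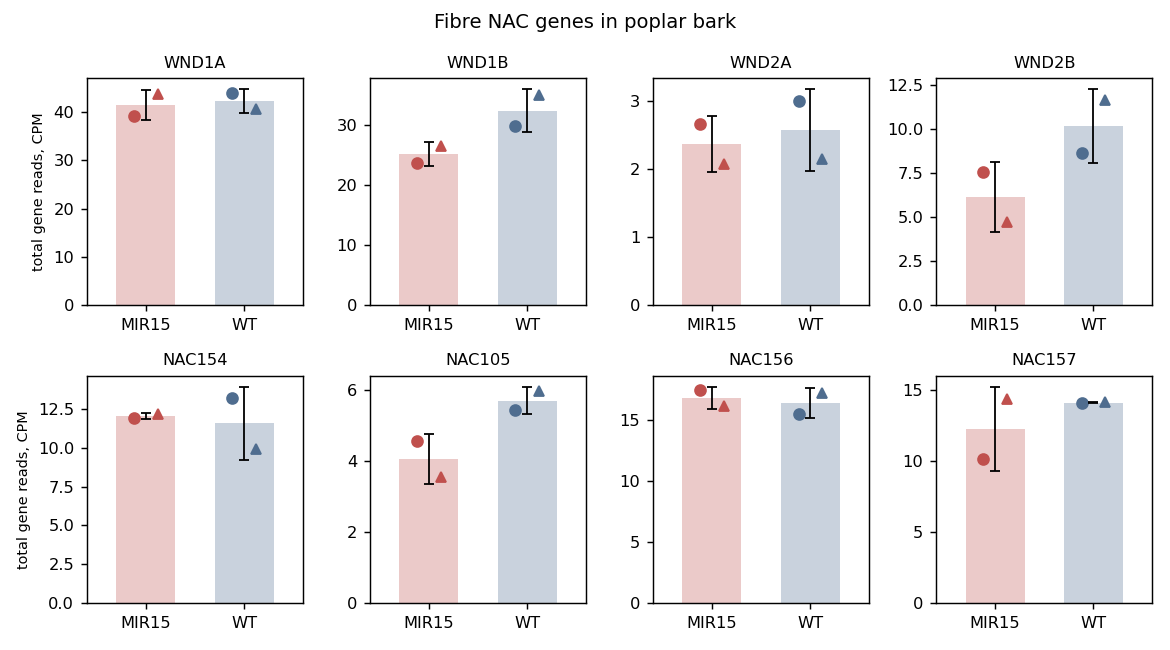
Total gene reads in CPM (vertical axes, each from 0) of the 8 fibre NAC genes in MIR15 and WT bark. Circles are replicate 1, triangles replicate 2, bars the mean and error bars the SD (n = 2). The MIR15 libraries lie below both WT libraries for WND1B, WND2B and NAC105; for the other 5 genes the genotypes overlap.

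WND1A and WND1B are the closest poplar counterparts of SND1. WND1A had 39.2 and 43.7 CPM in MIR15 replicates 1 and 2, against 44.0 and 40.5 CPM in WT replicates 1 and 2. The MIR15 values lie on either side of WT replicate 2, and the genotypes overlap. Its log2 fold change was -0.01 ± 0.14 (SE), with a 95% interval from -0.35 to 0.33, so that the fit allows between 0.786-fold and 1.25-fold of the WT level. It was the member with the narrowest interval.

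WND1B, whose transcript is known in poplar to be spliced into more than 1 form, had 23.7 and 26.6 CPM in MIR15, against 29.9 and 35.0 CPM in WT. Both MIR15 libraries were below both WT libraries, and every MIR15 library had between 0.679 and 0.889 of the level of each WT library. The means were 25.2 ± 2.03 CPM in MIR15 and 32.4 ± 3.55 CPM in WT (SD, n = 2 each). The log2 fold change was -0.35 ± 0.15 (SE), with a 95% interval from -0.71 to 0.01 and an unadjusted p of 0.0578 in edgeR. The splice forms of WND1B were not separated in the tables, which hold 1 transcript for the gene.

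WND2A and WND2B are the second SND1/NST-like pair. WND2A had 2.66 and 2.08 CPM in MIR15, against 3.00 and 2.14 CPM in WT, and in both genotypes replicate 1 was the higher library. Its log2 fold change was -0.10 ± 0.32 (SE), with the widest interval of the 8, from -0.85 to 0.65.

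WND2B had 7.55 and 4.76 CPM in MIR15, against 8.68 and 11.7 CPM in WT. The groups do not overlap, but MIR15 replicate 1 and WT replicate 1 are closer to each other than either is to its own partner. The means were 6.16 ± 1.97 CPM in MIR15 and 10.2 ± 2.11 CPM in WT (SD, n = 2 each), and the log2 fold change of WND2B was -0.70 ± 0.28 (SE), with a 95% interval from -1.36 to -0.04. Its unadjusted p of 0.0397 in edgeR did not survive adjustment (adjusted p = 1.00). The log2 fold change was -0.39 without MIR15 replicate 2 and -0.49 without WT replicate 2, with unadjusted p-values of 0.197 and 0.166 in edgeR. It was -1.09 without MIR15 replicate 1 and -0.88 without WT replicate 1, with unadjusted p-values of 0.00947 and 0.0195 (adjusted p = 1.00 and 0.597 in edgeR).

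Summed over the 4 SND1/NST-like genes, the level was 73.2 and 77.1 CPM in MIR15, against 85.6 and 89.3 CPM in WT. The ratio of the mean sums was 0.859. Of the difference of -12.3 CPM, WND1B made up 59.1% and WND2B 32.7%, while WND1A and WND2A made up 6.52% and 1.62%. The sums do not overlap between genotypes, and no p is given for them, because they add up chosen genes. Nor did the sums of the 4 SND2/SND3-like genes or of all 8 switches overlap. No share over sums of other genes was computed to set beside this.

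The SND2/SND3-like genes encode NAC proteins that act below the SND1 group, and in Arabidopsis SND3 is a direct target of SND1. NAC154 had 11.9 and 12.2 CPM in MIR15, against 13.3 and 9.93 CPM in WT: both MIR15 values lie between the WT values. Its log2 fold change was 0.07 ± 0.21 (SE), with a 95% interval from -0.41 to 0.56.

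NAC105, its partner, had 4.56 and 3.56 CPM in MIR15, against 5.42 and 5.97 CPM in WT. Both MIR15 libraries were below both WT libraries. The means were 4.06 ± 0.709 CPM in MIR15 and 5.70 ± 0.386 CPM in WT (SD, n = 2 each), with a log2 fold change of -0.47 ± 0.24 (SE), a 95% interval from -1.04 to 0.10 and an unadjusted p of 0.0946 in edgeR. The log2 fold change was -0.28 without MIR15 replicate 2.

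NAC156 had 17.5 and 16.2 CPM in MIR15, against 15.5 and 17.3 CPM in WT, with overlapping groups and a log2 fold change of 0.06 ± 0.16 (SE; 95% interval from -0.33 to 0.44). NAC157 had 10.1 and 14.3 CPM in MIR15, against 14.1 and 14.1 CPM in WT. MIR15 replicate 1 alone was low; MIR15 replicate 2 was at the WT level. The log2 fold change of NAC157 was -0.19 ± 0.21 (SE), with a 95% interval from -0.67 to 0.30, and it was 0.03 without MIR15 replicate 1. The 4 SND2/SND3-like genes summed to 44.1 and 46.3 CPM in MIR15, against 48.3 and 47.3 CPM in WT. These sums did not overlap between genotypes, and the ratio of mean sums was 0.946.

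**Figure D2:**
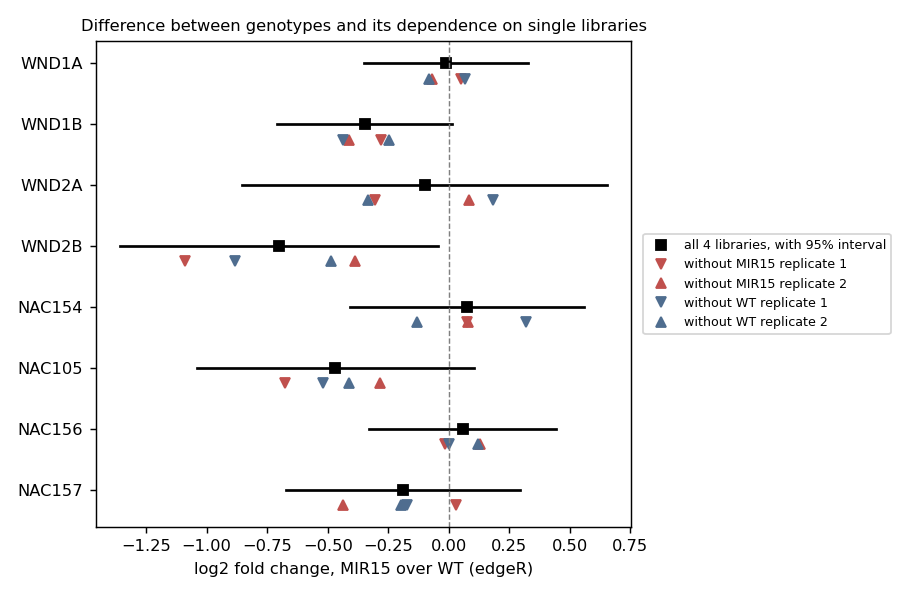
Log2 fold change of each fibre NAC gene, MIR15 over WT (horizontal axis), from edgeR. Black squares and lines are the values from all 4 libraries with their 95% intervals, and triangles are the values with 1 library left out. The interval of WND2B alone ends below 0, at -0.04, and WND1B, WND2B and NAC105 stay below 0 whichever library is left out.

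Replicates of the same genotype often differed by more than their read counts would give. The ratio of replicate 1 to replicate 2 was scaled to library totals alone and given an exact 95% interval for counting error only. This interval excluded 1 in 6 of 8 switches in MIR15 and in 6 of 8 in WT. The same count was not made over all genes, so it does not set the switches apart from other genes. The median gap between replicates was 1.20-fold in MIR15 and 1.14-fold in WT. WND2B had the widest gap of the 8, in MIR15, and a gap in the opposite direction in WT: replicate 1 was 1.59-fold of replicate 2 in MIR15 (interval 1.38 to 1.83) and 0.744-fold in WT (0.674 to 0.822). NAC157 had 0.707-fold in MIR15 (0.641 to 0.780) and 0.996-fold in WT (0.916 to 1.08), so its replicates differed in MIR15 and were within counting error in WT. NAC154 was the reverse, with 0.981-fold in MIR15 (0.890 to 1.08) and 1.33-fold in WT (1.22 to 1.47).

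The spread over replicates lay within the range of the spread across genotypes. Taken over the 8 switches as a root mean square, libraries differed on the log2 scale by 0.36 between the MIR15 libraries and by 0.29 between the WT libraries. Across genotypes this ran from 0.26, for MIR15 replicate 1 against WT replicate 1, to 0.56, for MIR15 replicate 2 against WT replicate 2. It was 0.40 for MIR15 replicate 1 against WT replicate 2, and 0.43 for MIR15 replicate 2 against WT replicate 1. Of these across values, only 0.26 was below both values within genotypes. For 25929 genes averaging 1 CPM or more and with reads in every library, the same measure was 0.43 between the MIR15 libraries, 0.43 between the WT libraries and from 0.35 to 0.50 across genotypes. The biological coefficient of variation that edgeR gave the switches ran from 0.130 for WND1A to 0.250 for WND2A, beside a median of 0.180 over all tested genes.

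The balance within paralog pairs can be followed between libraries, since the lengths of the partners are the same in each. Few reads matched more than 1 place: at most 0.162% of a member's reads, in WND2B. The unique gene reads gave the same balance to within 0.01 on the log2 scale. Whether the reads of this hybrid were placed on the right partner was not tested. In each of 3 pairs, the first-named gene took a greater part of the pair's reads in both MIR15 libraries than in either WT library. The second-named genes of these pairs are WND1B, WND2B and NAC105, whose own levels did not overlap between genotypes. The count of pairs is therefore not separate from that result. No share over other gene pairs was computed to set beside it. The log2 ratio of first to second gene was tested with an exact two-sided permutation test, which cannot go below p = 0.333 with 2 libraries against 2.

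WND1A took 62.3% and 62.1% of the reads of its pair in MIR15, against 59.5% and 53.7% in WT. The MIR15 libraries were nearly equal, and WT replicate 2 stood lowest. The log2 ratio of WND1A to WND1B averaged 0.72 in MIR15 and 0.38 in WT, a difference of 0.34 (exact permutation p = 0.333). Without WT replicate 2 the difference was 0.16.

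In the second pair WND2B, not WND2A, took most reads. WND2A had 26.0% and 30.4% in MIR15, against 25.6% and 15.5% in WT. Here MIR15 replicate 1 and WT replicate 1 were almost the same and WT replicate 2 was apart. The difference in log2 ratio was 0.64 (exact permutation p = 0.333), and 0.18 without WT replicate 2.

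NAC154 took 72.4% and 77.4% of the reads of its pair in MIR15, against 71.0% and 62.4% in WT, a difference in log2 ratio of 0.57 (exact permutation p = 0.333). Without WT replicate 2 it was 0.30. NAC156 took 63.3% and 53.1% in MIR15, against 52.5% and 55.1% in WT. The groups overlap in this last pair, its difference was 0.26 (exact permutation p = 0.667), and it was -0.04 without MIR15 replicate 1. Adjusted over the 4 pairs compared, no p could fall below 0.333.

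**Figure D3:**
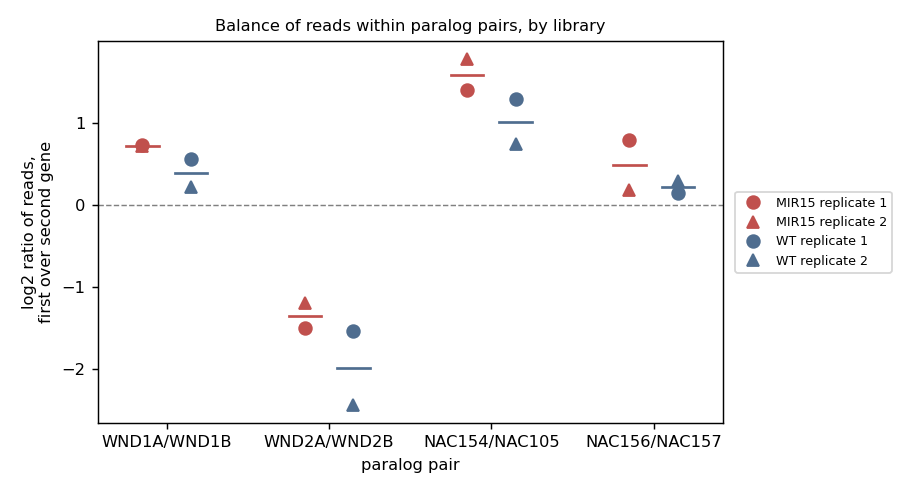
Log2 ratio of total gene reads, first over second gene of each paralog pair (vertical axis), in each library, with the mean of each genotype as a line. The ratio is not corrected for length, so its distance from 0 is in reads. In the first 3 pairs both MIR15 libraries lie above both WT libraries, with WT replicate 2 lowest; in NAC156/NAC157 the genotypes overlap.

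Other genes of the wall programme were described from 8 lists of 30 IDs, of which 7 lists with 22 IDs hold regulators and enzymes below the switches and 1 list holds the 8 VND-like vessel switches. The lists were written from general knowledge of poplar gene models and were not checked against an annotation, so that single genes are given by ID. Of the 30, 28 passed the filter on low counts, 0 were called higher and 0 lower by edgeR, with 1 of 28 at an unadjusted p under 0.05 (DESeq2, which called 0.0484% of tested genes, also called 0 of these). Their median log2 fold change was -0.05, beside -0.000805 over all tested genes and -0.14 over the 8 switches. Among the listed IDs tested, 12 had a value above 0 and 16 below; of all tested genes, 50.2% were below 0. Without the VND-like list, 8 of 22 were above 0 and 14 below, with a median of -0.06.

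The MYB46/MYB83-like list, the second-level switches that SND1 binds directly in Arabidopsis, had 4 members with mean levels from 1.82 to 4.72 CPM, and none changed past the test. Its log2 fold changes ran from -0.71 to 0.08, with a median of -0.05. The member with the smallest p, Potri.009G061500, had 2.66 and 1.19 CPM in MIR15, against 3.77 and 2.62 CPM in WT (unadjusted p = 0.144 and adjusted p = 1.00 in edgeR). These values overlap, since MIR15 replicate 1 is level with WT replicate 2. The member with most reads, Potri.009G053900, had 5.54 and 4.11 CPM in MIR15, against 4.98 and 4.26 CPM in WT.

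The KNAT7-like and MYB103-like lists are named after other direct targets of SND1 in Arabidopsis, and binding in poplar was not tested. The KNAT7-like ID is Potri.001G112200, whose Arabidopsis counterpart is a homeodomain regulator of wall thickness. It had 24.0 and 23.3 CPM in MIR15, against 26.9 and 22.9 CPM in WT. In the MYB103-like pair, Potri.003G132000 had 2.18 and 2.65 CPM in MIR15, against 2.84 and 2.49 CPM in WT. Both genes overlap between genotypes, and their log2 fold changes were -0.06 and -0.13.

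Lower-tier MYB regulators, several of which are tied to lignin genes in Arabidopsis, also held no call. In the MYB58/MYB63-like list of 2, Potri.007G067600 had 0.584 and 0.416 CPM in MIR15, against 1.10 and 0.999 CPM in WT, from 40 and 29 reads in MIR15 and 91 and 77 reads in WT. The groups do not overlap, but the log2 fold change of -1.05 ± 0.44 (SE) had an unadjusted p of 0.0465 and an adjusted p of 1.00 in edgeR. Its list partner Potri.005G096600 had 3.59 and 1.82 CPM in MIR15, against 4.03 and 3.11 CPM in WT, and overlapped.

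Over all lists, 5 of the 28 tested IDs had both MIR15 libraries below both WT libraries and 2 had both above, against 13.9% and 11.1% of all tested genes. In the MYB52/MYB54-like list both members had lower values in both MIR15 libraries than in either WT library. Potri.015G033600 had 2.70 and 1.95 CPM in MIR15, against 3.33 and 3.00 CPM in WT, and Potri.007G134500 had 2.89 and 2.62 CPM in MIR15, against 3.59 and 2.97 CPM in WT. Their unadjusted p-values were 0.197 and 0.421 in edgeR. Among the 6 MYB20/MYB43 and MYB42/MYB85-like IDs, 2 lay below WT in both MIR15 libraries and 1 above. Potri.015G129100, with the smallest p of these 6, had 7.39 and 4.72 CPM in MIR15, against 8.23 and 8.09 CPM in WT (unadjusted p = 0.162 in edgeR). Potri.001G118800, with most reads, had 10.6 and 14.5 CPM in MIR15, against 14.1 and 12.7 CPM in WT.

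The secondary wall cellulose synthases, which make the cellulose of thick walls and lie downstream of the switches, had mean levels from 32.7 to 160 CPM and log2 fold changes from -0.04 to 0.07. Potri.002G257900, with most reads, had 157 and 165 CPM in MIR15, against 185 and 133 CPM in WT. Potri.018G103900, with the smallest p, had 102 and 105 CPM in MIR15, against 114 and 84.9 CPM in WT (adjusted p = 1.00 in edgeR). WT replicate 1 held the highest value of all 5 genes and WT replicate 2 the lowest of 4. The switches were divided between these libraries: WND1A, WND2A and NAC154 also had their highest value in WT replicate 1, while WND1B, WND2B and NAC105 had theirs in WT replicate 2.

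The VND-like NAC genes are the switches for vessel elements, the water-conducting cells of wood, and belong to the same NAC subfamily as the SND1 group. The 8 listed IDs together had 192 and 169 reads in MIR15, against 162 and 183 reads in WT, or between 1.96 and 2.80 CPM in sum. The 4 SND1/NST-like genes together had 5009 and 5378 reads in MIR15, against 7086 and 6878 reads in WT. Lengths were not available for either set, so these are sums of reads. The filter on low counts left 6 of the 8 VND-like IDs, with log2 fold changes from -0.76 to 0.99 and none called by edgeR. Potri.007G014400, with both the smallest p and the most reads, had 91 and 64 reads in MIR15, against 54 and 38 reads in WT, or 1.33 and 0.918 CPM in MIR15 against 0.652 and 0.493 CPM in WT. Both MIR15 libraries were above both WT libraries, with a log2 fold change of 0.99 ± 0.44 (SE; unadjusted p = 0.0590 and adjusted p = 1.00 in edgeR).

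**Figure D4:**
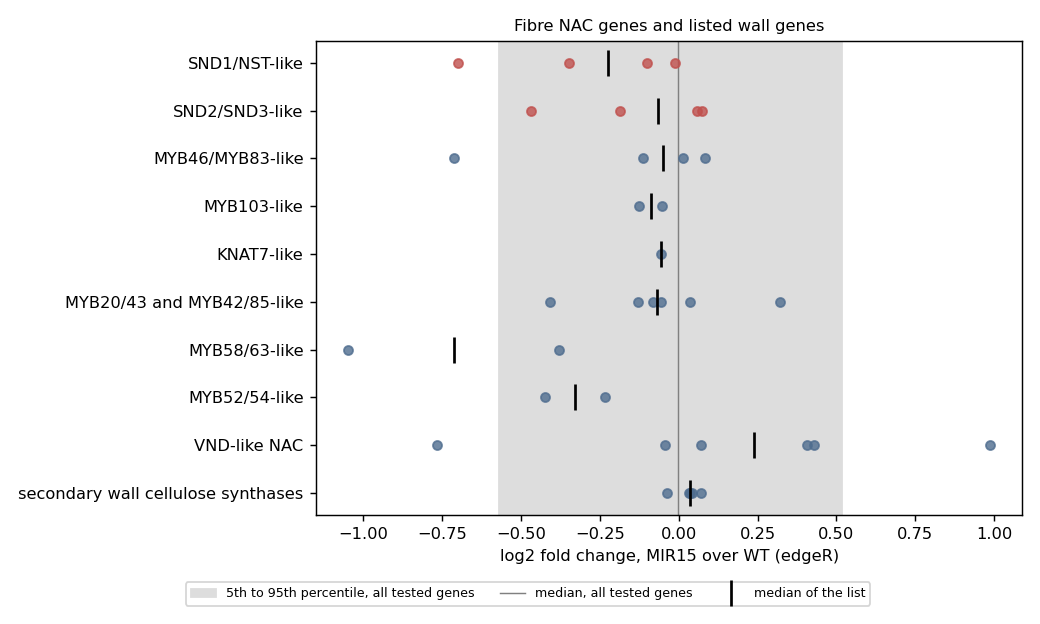
Log2 fold change, MIR15 over WT (horizontal axis), of the 8 fibre NAC genes (red) and of the 28 tested IDs of the wall gene lists (blue), with each list's median as a black tick. The grey band spans the 5th to the 95th percentile of all tested genes, -0.57 to 0.52. WND2B, at -0.70, is the switch outside the band, and the 5 cellulose synthases lie between -0.04 and 0.07.

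Among the 11 listed genes averaging 5 CPM or more, those at the smallest distance from the switches over the 4 libraries were Potri.012G127700, Potri.001G112200 and Potri.017G130300. The distance was the root-mean-square distance between a gene's log2 CPM, centred over the libraries, and the mean of the 8 switches treated in the same way. The mean of the switches stood at -0.08 and -0.16 in MIR15, against 0.12 and 0.11 in WT. Potri.012G127700, of the MYB20/MYB43 and MYB42/MYB85-like list, was at a distance of 0.10, with -0.17 and 0.02 in MIR15, against 0.06 and 0.09 in WT. The KNAT7-like Potri.001G112200 was at 0.11 and Potri.017G130300 at 0.14, while the 5 cellulose synthases were at 0.21 to 0.24. A gene equal in all 4 libraries would be at 0.12, so small distances here mostly mark genes that varied little, and Potri.017G130300 was no closer to the switches than such a gene.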

How the data were processed

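For each transcript ID the authors deposited 2 read counts, unique gene reads and total gene reads, both made with CLC per the file headers. The last deposited column holds a signal that the authors normalised with DESeq, per the file headers; within a library it is a fixed multiple of the total gene reads and was not used further. The aligner, genome build and annotation were not given in the sources used here. Groups and replicate numbers come from the sample titles; the numbers in the MIR15 file headers differ from those.

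The test of total gene reads used edgeR 4.0.16 (R 4.3.3): filterByExpr, TMM on the full library totals, quasi-likelihood F test with genotype as the sole term, two-sided, Benjamini-Hochberg over all 30975 tested genes, called at an adjusted p under 0.05. TMM factors ran from 0.983 to 1.02. SE values and 95% intervals were derived from the F statistic and its degrees of freedom. CPM uses the library total without TMM. The script was run on simulated data with known changes, as a check of the code only. These changes were larger than that of any switch, so power at the sizes seen here was not assessed. Alternatives were RLE factors, library totals alone, no filter, a mean of at least 5 CPM, the title number as a replicate block, DESeq2 1.42.0, unique gene reads and leaving out each library.

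Of the lists, 2 were name patterns (opposing regulators, all NAC genes) and, like the name patterns for tissue markers, could not be filled without an annotation; the length correction could not be run. The rule for named genes took all 8 members, and of each list the ID with the smallest p and the ID with most reads, plus the 3 genes closest to the members over the libraries. The members, lists and tests were chosen with earlier results of these data known. No sequence is shown, since none was given with the tables.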

Additional observations from a re-analysis of the deposited data

How the results depend on the processing

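None of the 8 switches and none of the 30 listed IDs was called at an adjusted p under 0.05 in any of the 11 alternatives in which it was tested; with a mean of at least 5 CPM only 6 of the switches (not WND2A or NAC105) and 11 of the listed IDs were tested. The count of called genes, 1 in edgeR, was 0 with a mean of at least 5 CPM, 0 in unique gene reads, 15 with DESeq2 and 120 with a replicate block on the title number; leaving out single libraries gave 0 to 8, with 0 without either MIR15 replicate and 8 without WT replicate 1. At these counts of 0, edgeR gave 389 genes at an unadjusted p under 0.05 with a mean of at least 5 CPM, 768 in unique gene reads, 882 without MIR15 replicate 1 and 1351 without MIR15 replicate 2. Where a genotype is left with 1 library, that library is assumed to vary like the other group.

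With the replicate block, 2 of the 8 switches had an unadjusted p under 0.05 in edgeR (WND2B and WND1B, with adjusted p-values of 0.367 and 0.944 in edgeR), beside 5.03% of all tested genes. Deviations from the group means correlated at 0.248 between same-numbered libraries, but the labels tie the numbers to no shared plant, batch or day, so the libraries were not taken as pairs. Over the alternatives in which each was tested, the log2 fold change stayed below 0 for WND1B (-0.44 to -0.25), WND2B (-1.09 to -0.39) and NAC105 (-0.68 to -0.28). Of 86 alternative fold changes over the 8 switches, 8 turned direction, each when 1 library was left out: WND1A went from -0.0819 to 0.0682 over those settings (0.0507 without MIR15 replicate 1), WND2A from -0.332 to 0.183 (0.0853 without MIR15 replicate 2), NAC154 from -0.130 to 0.317, NAC156 from -0.0142 to 0.131 (-0.000815 without WT replicate 1) and NAC157 from -0.437 to 0.0288. The paralog difference of NAC156/NAC157 ran from -0.0419 to 0.569 when libraries were left out, that of WND1A/WND1B from 0.164 to 0.507, that of WND2A/WND2B from 0.185 to 1.10 and that of NAC154/NAC105 from 0.295 to 0.850; the cause was not tested. Scaling alternatives moved the median of all genes by at most 0.0189 on the log2 scale. With 2 libraries per genotype, even the narrowest interval among the switches, that of WND1A, allows 0.786-fold to 1.25-fold, so the absence of calls does not show equal levels.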
